A study of Mus musculus with 7 samples.

Results

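The lipids that waterproof the skin were followed through 40 mouse genes for epidermal barrier lipid synthesis, listed by name and grouped by role: 5 of the lipoxygenase pathway, 9 of acylceramide synthesis and transport, 13 of the ceramide backbone and its turnover, 5 of fatty acid elongation and desaturation, 5 of neutral lipid and wax ester synthesis and 3 acid lipases. They are 40 of the 55423 features in the count table, and all 40 reached at least 5 reads in at least 1 tumour, as did 24433 features in all. Their RNA was compared between cutaneous squamous cell carcinomas of Ivl:BRAFV600E mice, called BRAF tumours here, and of Ivl:BRAFV600E-SOX2LSL mice, called BRAF-SOX2 tumours. Both carry an involucrin-driven, tamoxifen-inducible Cre (Ivl-CreERT2), which after topical tamoxifen at 7 to 10 weeks of age turned on BRAFV600E in the IVL+ cells. These keratinocytes make the cornified envelope protein involucrin. The paper places them in the suprabasal layer and, as a minority already committed to differentiate, among the basal cells. The BRAF-SOX2 mice also carry a Rosa26 allele that expresses SOX2 and eGFP once recombined. All mice were on a C57BL/6J background, and 2 of the 3 BRAF mice used also carried a Cre-reporter allele, Rosa26LSL-tdRFP. Each group holds 3 tumours from 3 mice, taken at clinical endpoint, and the BRAF-SOX2 tumours were collected sooner after induction, so time and genotype cannot be told apart. Values are given in a fixed order throughout, the first female, the second female and the male mouse for BRAF tumours, and the first male, the second male and the female mouse for BRAF-SOX2 tumours.

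In the outer living layers of the epidermis, keratinocytes make ceramides with ultra-long fatty acids. These are hydroxylated at their far end, joined to linoleic acid to give acylceramides, loaded into lamellar granules and secreted. The lipoxygenases Alox12b and Aloxe3 then oxidise the linoleate, which allows the lipid to be bound to the proteins of the cornified envelope. Inherited loss of several of these enzymes gives ichthyosis. Sebaceous glands and fat cells use some of the same enzyme families for wax esters and stored fat, so a member of the list need not come from the epidermis.

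Each tumour gave 23565432 to 31152826 counts assigned to genes. Sox2 RNA stood at 0.716, 0.508 and 0.238 CPM (read counts relative to library size, after TMM scaling of the libraries) in the BRAF tumours and at 182, 155 and 158 CPM in the BRAF-SOX2 tumours, as the labels say. Suprabasal keratinocyte markers, which name the cells that make these lipids, were summed over 12 genes. The sum was 84282 to 100807 CPM in BRAF and 3135 to 27569 CPM in BRAF-SOX2 tumours, lowest in the first male. In BRAF tumours most of it was Krt1 (32201 to 45416 CPM) and Krt10 (28863 to 36342 CPM). Ivl, Flg2 and Krt77 overlapped between groups. Of these 12 genes, edgeR called 3 lower and 0 higher, 10 had an unadjusted p under 0.05, and 9 were lower without overlap between groups. DESeq2 called 8 of them lower and 1 higher, and limma-voom 6 and 0. Over all genes, edgeR called 1.51% lower and 2.39% higher, DESeq2 7.76% and 10.5%, and limma-voom 3.97% and 4.8%. An unadjusted p under 0.05 was held by 25.7% of all genes, and 16% were lower and 18.2% higher without overlap. The 14 epithelial markers were mixed, with a median log2 fold change of -0.72, 7 lower and 3 higher without overlap, and a sum of 41280 to 71551 CPM in BRAF and of 19572 to 47676 CPM in BRAF-SOX2 tumours. EdgeR called 0 of them lower (DESeq2 4, limma-voom 0) and 2 higher, Epcam and Cdh3. It also called higher 7 of 8 skeletal muscle markers (summed at 1.09 to 3.56 CPM in BRAF and at 192 to 906 CPM in BRAF-SOX2 tumours) and 2 of 7 leukocyte markers. EdgeR called 0 of 8 basal, 8 adipocyte, 7 fibroblast, 5 endothelial and 5 melanocyte markers, of which 4, 3, 1, 2 and 1 had an unadjusted p under 0.05. DESeq2 called 3, 1, 1, 1 and 0 of them and limma-voom 2, 0, 1, 1 and 0. The first male BRAF-SOX2 tumour stands apart, with the lowest sum of suprabasal markers and the highest of adipocyte markers (120 CPM against 21 to 49 in the other tumours), as does the second female BRAF tumour, with the lowest sum of fibroblast markers (759 CPM against 2117 to 8281). In bulk RNA, fewer cells of a type and less RNA per cell cannot be told apart, and the part of these differences in the results was not tested.

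Most barrier lipid genes had less RNA in the BRAF-SOX2 tumours, and a smaller set had more. The log2 fold change, BRAF-SOX2 minus BRAF, was below 0 for 28 of 40 members and above 0 for 12, and its median was -0.81 against 0.04 over all genes tested. At an adjusted p of 0.05, 4 members passed. Alox12, Nipal4 and Cers4 were called lower, 3 of 40 members beside 1.51% of all genes, and Alox12e was called higher, 1 of 40 beside 2.39% of all genes (edgeR). The groups did not overlap for 23 members that were lower in every BRAF-SOX2 tumour, beside 16% of all genes. They also did not overlap for 7 members that were higher in every one, a share near the 18.2% of all genes. For the remaining 10 the groups overlapped. Of the 40 members, 25 had an unadjusted p under 0.05, beside 25.7% of all genes. Apart from those called, 14 members had an adjusted p between 0.05 and 0.1, of which 13 had a negative log2 fold change.

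**Figure D1:**
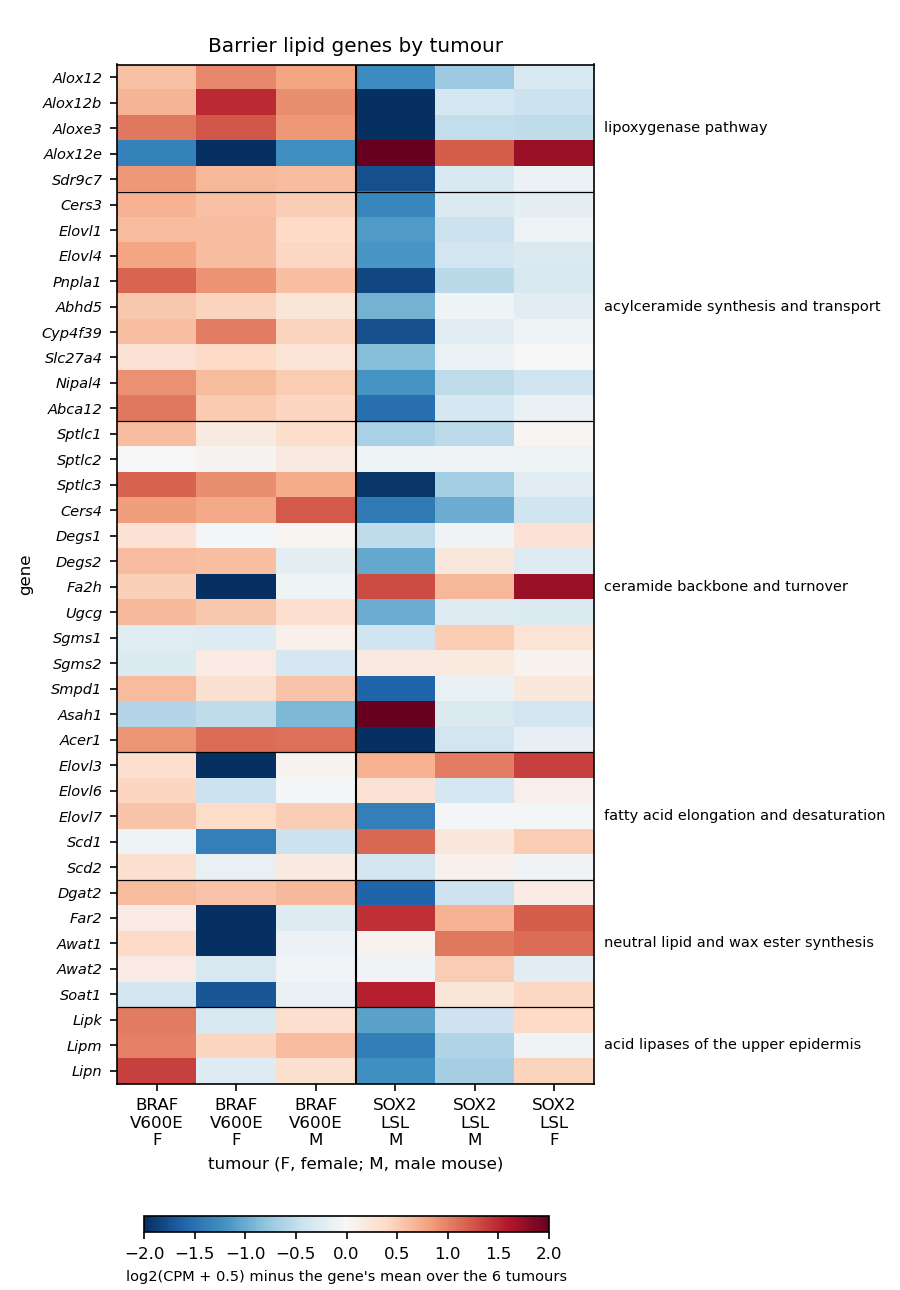
Each row is 1 of the 40 genes and each column 1 tumour, in the order used in the text (SOX2LSL marks the BRAF-SOX2 tumours), with colour giving log2(CPM + 0.5) minus the gene's mean over the 6 tumours, cut at 2 in either direction. Most rows of the lipoxygenase, acylceramide and ceramide roles are blue in the BRAF-SOX2 columns, deepest in the first male, whereas the dark blue cells in the BRAF columns are mostly those of the second female.

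Which tumour was lowest was not spread evenly. Of the 23 members lower without overlap, 22 were lowest in the first male BRAF-SOX2 tumour. Of the 7 members higher without overlap, 6 were lowest in the second female BRAF tumour. Neither count was made over all genes, so whether it is particular to the members was not tested. Without that BRAF-SOX2 tumour, edgeR called 17 members lower and 1 higher, beside 3.1% and 3.59% of all genes, and the median log2 fold change of the members was -0.54. Leaving out any other tumour left 0 called higher, and 0 called lower without the first female, the second female or the male of the BRAF mice or the second male of the BRAF-SOX2 mice. Few genes of any kind were called there. In that order, edgeR called 10 of 23953, 17 of 24198, 54 of 24258 and 64 of 24037 genes lower, and 12, 33, 125 and 138 higher. Without the female BRAF-SOX2 tumour Alox12 and Cers4 were called lower, beside 114 of 24071 genes lower and 298 higher. In the 6 fits with a tumour left out, 22 to 28 of the 40 members had an unadjusted p under 0.05, beside 4306 to 5832 of all genes tested. DESeq2, on the 6 tumours, called 19 members lower and 3 higher (Alox12e, Scd1 and Soat1), beside 7.76% and 10.5% of all genes, and gave no adjusted p for Asah1, and limma-voom called 15 lower and 1 higher, beside 3.97% and 4.8%. In edgeR, 12 members were called lower and 1 higher without a filter on low counts (beside 1.99% and 3.25% of all genes), 6 and 1 with filterByExpr (3.18% and 4.18%) and 8 and 1 with libraries scaled to the epithelial markers (1.02% and 1.62%). With sex as a covariate, edgeR called 0 members in either direction, beside 67 of 24433 genes lower and 161 higher. In that fit 22 members had an unadjusted p under 0.05, beside 4543 of all genes.

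**Figure D2:**
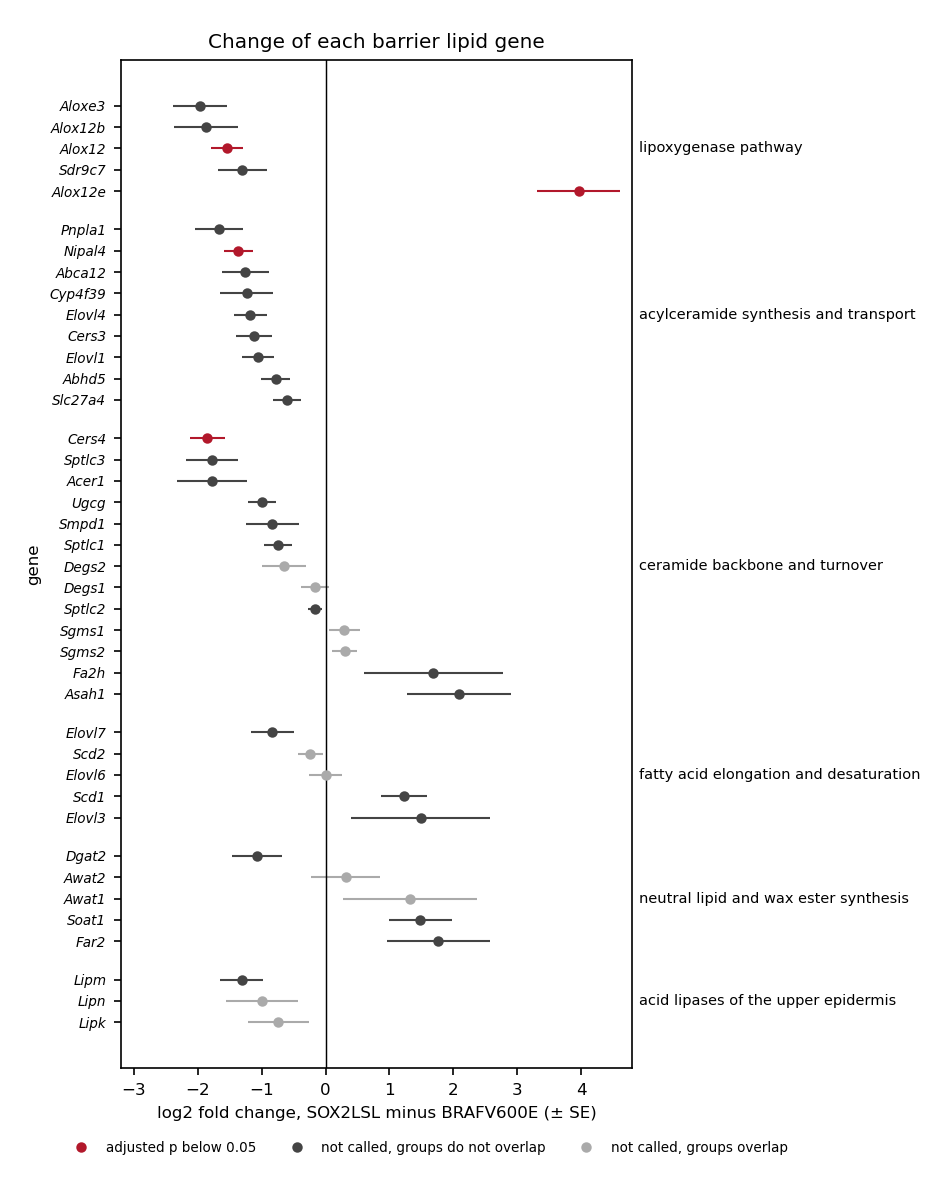
Log2 fold change of each gene, BRAF-SOX2 minus BRAF, with its standard error (edgeR, 3 tumours against 3), by role. Red marks the 4 genes with an adjusted p below 0.05, dark grey those whose groups do not overlap and light grey those whose groups do; all 9 acylceramide genes lie left of 0, and Alox12e lies farthest right at 3.96.

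Lipoxygenase genes moved in both directions. Of the 5 members of this role, 1 was called lower and 1 higher, beside 1.51% and 2.39% of all genes. Without overlap, 4 were lower and 1 higher, beside 16% and 18.2% of all genes. The middle log2 fold change of the 5 was -1.54. Alox12, the platelet-type 12-lipoxygenase, stood at 36.7, 47.9 and 42.3 CPM in BRAF and at 9.76, 14.5 and 19.4 CPM in BRAF-SOX2 tumours. Every BRAF-SOX2 tumour lay below every BRAF tumour, and the mean fell 2.91-fold, from 42.3 ± 5.56 to 14.6 ± 4.82 CPM (SD, n = 3), with a log2 fold change of -1.54 ± 0.26 (SE, edgeR adjusted p = 0.0291). Alox12e, the epidermis-type 12-lipoxygenase, stood at 1.6, 0.277 and 1.81 CPM in BRAF and at 28.5, 12 and 17.4 CPM in BRAF-SOX2 tumours. It was scarce in every BRAF tumour and higher in every BRAF-SOX2 tumour, and its mean rose 15.7-fold, from 1.23 ± 0.83 to 19.3 ± 8.42 CPM (log2 fold change 3.96 ± 0.64, adjusted p = 0.0283). With each tumour left out in turn, the adjusted p of Alox12e ran from 0.02 to 0.128 and passed in 1 of 6 fits, and that of Alox12 ran from 0.0119 to 0.121 and passed in 2 of 6.

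Alox12 and Alox12e are near each other on the same strand of chromosome 11 (GRCm38, GENCODE M21). Alox12 lies at chr11:70241457-70255353 and Alox12e at chr11:70315610-70322628, 60256 bases apart, both on the minus strand. The ratio of Alox12e to Alox12 CPM, not scaled for length, was 0.0436, 0.00579 and 0.0426 in BRAF and 2.92, 0.824 and 0.898 in BRAF-SOX2 tumours. These ratios did not overlap. With Alox12e higher and Alox12 lower in every BRAF-SOX2 tumour, no other outcome was possible. The exact permutation test (two-sided, p = 0.1, the smallest that 3 against 3 can give) therefore adds no support. Their promoters are shown because these related genes moved in opposite directions. The sequences, from RefSeq on GRCm38.p6, run 5′ to 3′ on the minus strand and end at the base before the transcription start or, for Alox12e, before the first base that GENCODE counts as exon. Alox12 is given at chr11:70255371-70255620 and Alox12e at chr11:70322629-70322780, and neither window holds any of the 6 transcription factor motifs that were searched for in all promoters.
Alox12: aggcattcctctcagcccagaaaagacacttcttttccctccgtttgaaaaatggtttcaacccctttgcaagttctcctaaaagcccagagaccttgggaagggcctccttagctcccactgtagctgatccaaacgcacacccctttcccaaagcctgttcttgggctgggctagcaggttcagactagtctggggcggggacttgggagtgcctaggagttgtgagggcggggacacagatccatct
Alox12e: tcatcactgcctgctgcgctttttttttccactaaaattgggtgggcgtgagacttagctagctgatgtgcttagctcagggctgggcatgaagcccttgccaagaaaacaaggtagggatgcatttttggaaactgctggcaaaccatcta

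The barrier lipoxygenases proper form a second pair on that chromosome, 7873 bases apart. Aloxe3 (chr11:69125896-69149115), which makes epoxyalcohols from lipid hydroperoxides, stood at 151, 172 and 132 CPM in BRAF and at 15.6, 50.9 and 50.4 CPM in BRAF-SOX2 tumours. Alox12b (chr11:69156989-69169792), which makes those hydroperoxides, stood at 489, 861 and 581 CPM in BRAF and at 61.6, 240 and 227 CPM in BRAF-SOX2 tumours. For both the groups did not overlap and the first male BRAF-SOX2 tumour was far below the others. The log2 fold changes were -1.96 ± 0.42 for Aloxe3 (adjusted p = 0.0518) and -1.87 ± 0.50 for Alox12b (adjusted p = 0.08), neither of which passed. Without the first male they were -1.58 (adjusted p = 0.00363) and -1.46 (adjusted p = 0.0201). The ratio of Aloxe3 to Alox12b stayed between 0.200 and 0.308 in all 6 tumours, and the groups overlapped in it. Sdr9c7, the dehydrogenase that acts on the oxidised linoleate, stood at 394, 344 and 336 CPM in BRAF and at 63.5, 174 and 198 CPM in BRAF-SOX2 tumours, again without overlap (log2 fold change -1.30 ± 0.39, adjusted p = 0.0997).

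**Figure D3:**
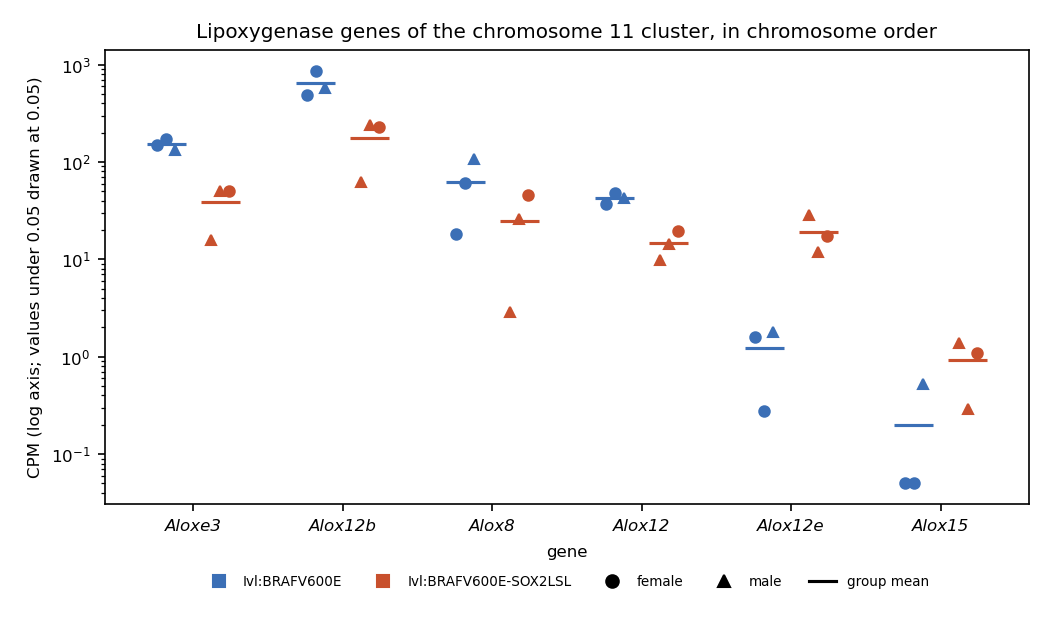
CPM on a log axis of the lipoxygenase genes of chromosome 11 in chromosome order, 1 point per tumour (circles, female; triangles, male), with bars at the group means. Aloxe3, Alox12b and Alox12 lie lower in every BRAF-SOX2 tumour, Alox12e higher in every one, and the groups overlap for Alox8 and Alox15, which are not among the 40.

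All 9 genes of acylceramide synthesis and transport were lower in every BRAF-SOX2 tumour than in every BRAF tumour, beside 16% of all genes. The log2 fold changes of the 9 centred on -1.18. Of the 9, 1 was called lower, Nipal4, beside 1.51% of all genes. Nipal4 encodes a membrane protein of the granular layer whose loss causes ichthyosis. It stood at 195, 160 and 147 CPM in BRAF and at 45.2, 72.3 and 77.9 CPM in BRAF-SOX2 tumours. The highest BRAF-SOX2 tumour was well below the lowest BRAF tumour, and the mean fell 2.57-fold, from 167 ± 24.6 to 65.1 ± 17.5 CPM (log2 fold change -1.36 ± 0.23, edgeR adjusted p = 0.0292, and 0.00967 to 0.129 with each tumour left out). Its promoter window, from RefSeq on GRCm38.p6, is printed because Nipal4 is the called gene of this role and its window holds 2 matches of an AP-2-type motif, GCCNNNGGC. The part outside GENCODE exons is chr11:46166509-46166609 on the minus strand, and holds the match, in capitals, that starts 204 bases before the RefSeq start.
Nipal4: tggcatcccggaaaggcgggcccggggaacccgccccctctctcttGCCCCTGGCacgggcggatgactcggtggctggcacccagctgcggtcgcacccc

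The enzymes that build the ultra-long chain showed the same order of BRAF-SOX2 tumours. Elovl4, the elongase of ultra-long fatty acids, stood at 1660, 1478 and 1283 CPM in BRAF and at 426, 739 and 786 CPM in BRAF-SOX2 tumours (log2 fold change -1.18 ± 0.26, adjusted p = 0.0543). Elovl1, which supplies it with very-long-chain substrates, stood at 347, 342 and 294 CPM against 102, 166 and 207 CPM (log2 fold change -1.05 ± 0.25, adjusted p = 0.065). In both, the groups did not overlap and the first male BRAF-SOX2 tumour was lowest. Their ratio, Elovl4 to Elovl1, lay between 3.80 and 4.79 in the 6 tumours and overlapped between groups. Cers3, the ceramide synthase that takes these chains, stood at 436, 405 and 379 CPM in BRAF and at 108, 219 and 235 CPM in BRAF-SOX2 tumours (log2 fold change -1.12 ± 0.28, adjusted p = 0.072). Cyp4f39, a mouse cytochrome P450 of the family that hydroxylates the far end of the chain, stood at 324, 433 and 289 CPM against 62.9, 182 and 201 CPM. Its log2 fold change was -1.23 ± 0.41 (adjusted p = 0.125), so that again the groups stood apart without passing the test.

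Linoleate transfer and export showed the same. Pnpla1, the transacylase that joins linoleate to the ceramide, stood at 186, 155 and 125 CPM in BRAF and at 23.1, 57.0 and 67.1 CPM in BRAF-SOX2 tumours (log2 fold change -1.66 ± 0.38, adjusted p = 0.0571). Of its exon bases, 13.3% are shared with an antisense gene, Pnpla1os, and whether counting used the strand is not stated. Abca12, the transporter that loads lamellar granules, stood at 1649, 1148 and 1069 CPM against 279, 620 and 724 CPM. Its groups were apart too, with the first female BRAF tumour highest and the first male BRAF-SOX2 tumour lowest (log2 fold change -1.25 ± 0.36, adjusted p = 0.0963). Abhd5, the coactivator of Pnpla1, and Slc27a4, an acyl-CoA synthetase for very long chains, had the smallest differences of this role, with log2 fold changes of -0.78 (adjusted p = 0.0986) and -0.60 (adjusted p = 0.149). Without the first male, 7 of the 9 had an edgeR adjusted p below 0.05, and Abca12 (0.0509) and Slc27a4 (0.0878) did not. In that fit 3.1% of all genes were called lower, and the tumour left out was the lowest of all for each of the 9.

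**Figure D4:**
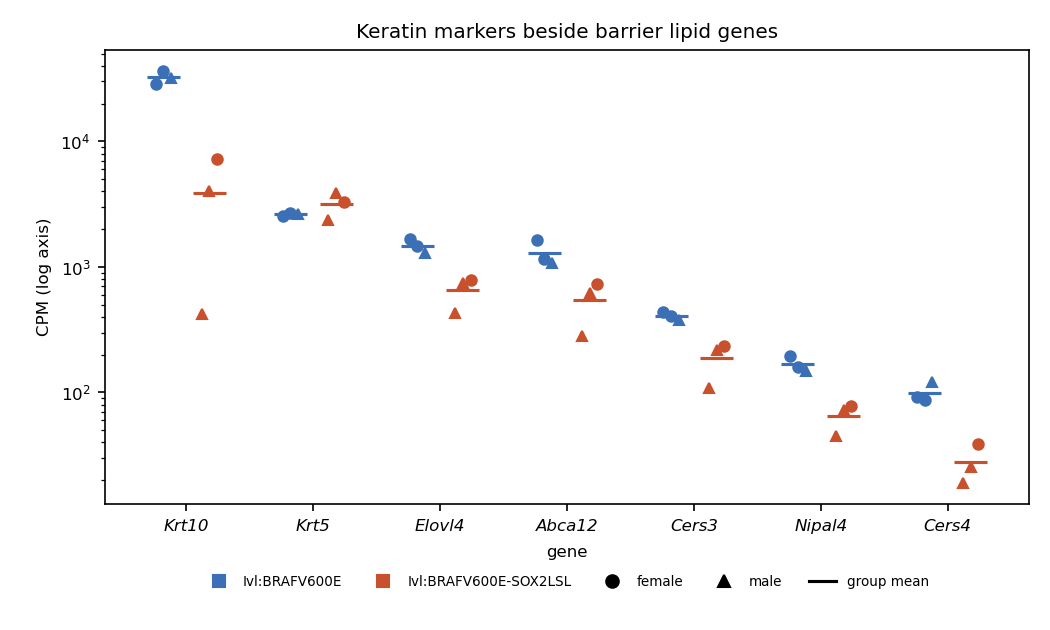
CPM on a log axis of the suprabasal keratin Krt10, the basal keratin Krt5 and 5 of the barrier lipid genes, 1 point per tumour, with bars at the group means. Krt10 spans 425 to 7214 CPM in BRAF-SOX2 tumours, all below the BRAF tumours, and Krt5 overlaps between groups.

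A pair of keratins is set beside these genes, chosen with the values known. Krt10, a keratin of the suprabasal layers, stood at 28863, 36342 and 31849 CPM in BRAF and at 425, 3994 and 7214 CPM in BRAF-SOX2 tumours, with a log2 fold change of -3.06 ± 0.88 (adjusted p = 0.0935). Krt5, a keratin of the basal layer, stood at 2562, 2668 and 2626 CPM against 2371, 3900 and 3314 CPM, and its groups overlapped. The order of the BRAF-SOX2 tumours in Krt10, first male, second male and female, is that of Elovl4, Abca12 and Cers3. Relative to Krt5, Elovl4 was lower, at 0.648, 0.554 and 0.488 against 0.180, 0.189 and 0.237. Relative to Krt10 it was higher, at 0.0575, 0.0407 and 0.0403 against 1.0, 0.185 and 0.109. Neither ratio overlapped between groups (exact permutation test, two-sided, p = 0.1, the smallest possible), but other markers of the same lists differed from this pair. Of the suprabasal markers, Ivl, Flg2 and Krt77 overlapped between groups, with log2 fold changes of -0.64, -0.66 and 5.27, and of the basal markers Krt14 had one of -0.65 beside 0.29 for Krt5. What share of the lower levels goes with fewer suprabasal cells was not tested.

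Among the 13 genes of the ceramide backbone and its turnover, 1 was called lower and 0 higher, beside 1.51% and 2.39% of all genes. Without overlap, 7 were lower and 2 higher, beside 16% and 18.2% of all genes. The log2 fold changes of the 13 centred on -0.65. Cers4 was the called gene, a ceramide synthase of long and very long chains, at 92.1, 86.9 and 120 CPM in BRAF and 18.9, 25.4 and 38.9 CPM in BRAF-SOX2 tumours. No tumour of either group came near the other group, and the mean fell 3.60-fold, from 99.7 ± 17.9 to 27.7 ± 10.2 CPM (log2 fold change -1.85 ± 0.28, edgeR adjusted p = 0.0262, and 0.0125 to 0.119 with each tumour left out). Of its exon bases, 7.22% are shared with a pseudogene on the other strand. Without the first male BRAF-SOX2 tumour the log2 fold change of Cers4 was -1.63 (adjusted p = 0.0125).

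The subunits of serine palmitoyltransferase, the first enzyme of the pathway, had unlike fold changes. Sptlc3, the subunit that widens the choice of acyl chain, stood at 77.9, 65.1 and 57.4 CPM in BRAF and at 8.48, 21.2 and 29.0 CPM in BRAF-SOX2 tumours (log2 fold change -1.78 ± 0.41, adjusted p = 0.0584). Sptlc2, the alternative catalytic subunit, had a log2 fold change of -0.16 (adjusted p = 0.377), or of 0.051 with libraries scaled to the epithelial markers, and Sptlc1, their shared partner, one of -0.74 (adjusted p = 0.0973), and for all 3 the groups did not overlap. The ratio of Sptlc2 to Sptlc3 was 1.36, 1.68 and 2.07 in BRAF and 11.7, 4.76 and 3.39 in BRAF-SOX2 tumours, without overlap (exact permutation test, two-sided, p = 0.1, the smallest possible).

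Ceramide modification and breakdown were mixed. Ugcg, which makes the glucosylceramides that are packed into granules, stood at 501, 461 and 402 CPM in BRAF and at 159, 266 and 261 CPM in BRAF-SOX2 tumours (log2 fold change -0.99 ± 0.22, adjusted p = 0.0563). Acer1, the alkaline ceramidase of the epidermis, stood at 86.9, 102 and 101 CPM against 7.44, 35.8 and 41.7 CPM (log2 fold change -1.77 ± 0.55, adjusted p = 0.107). Neither overlapped, and for Acer1 the first male was far below the other BRAF-SOX2 tumours. Of the exon bases of Acer1, 14.1% are shared with a non-coding RNA gene on the other strand. Degs1, the desaturase that completes ceramide, stood at 274, 220 and 230 CPM against 157, 212 and 276 CPM, with overlap (log2 fold change -0.17 ± 0.22, adjusted p = 0.667). Of the others, Smpd1 had a log2 fold change of -0.83 and Degs2 of -0.65, while Sgms1 and Sgms2, which turn ceramide into sphingomyelin, had 0.29 and 0.30. The adjusted p of these 4 was between 0.251 and 0.47, and the groups overlapped for all but Smpd1.

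The value of Asah1, the lysosomal acid ceramidase, rested on 1 tumour. It stood at 32.0, 33.8 and 25.7 CPM in BRAF and at 312, 39.6 and 36.9 CPM in BRAF-SOX2 tumours. Although the groups did not overlap, the second male and the female were far closer to the highest BRAF tumour than to the first male. The log2 fold change of 2.09 ± 0.82 (adjusted p = 0.168) became 0.33 (adjusted p = 0.238) without the first male. Pcm1, the gene beside Asah1 on chromosome 8, stood at 86.4 CPM in that tumour and at 54.7 to 61.2 CPM in the other 5.

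Several members that sebaceous glands also use had higher means in BRAF-SOX2 tumours, without a call by edgeR. Other genes of neutral lipid and wax ester synthesis differed. Dgat2 was lower without overlap (log2 fold change -1.07), and Awat1 and Awat2 overlapped between groups (1.32 and 0.32). Fa2h, which adds the hydroxyl group of 2-hydroxy ceramides, stood at 12.7, 0.0462 and 8.41 CPM in BRAF and at 22.9, 14.5 and 30.8 CPM in BRAF-SOX2 tumours (log2 fold change 1.69 ± 1.09, adjusted p = 0.364). Elovl3, an elongase of sebum and brown fat, stood at 6.51, 0 and 5.27 CPM against 8.56, 10.9 and 13.8 CPM (log2 fold change 1.49 ± 1.08, adjusted p = 0.418). Far2, which reduces fatty acids to the alcohols of wax esters, stood at 11.3, 0.6 and 8.27 CPM against 28.3, 16.5 and 23.8 CPM (log2 fold change 1.76 ± 0.80, adjusted p = 0.221). Of the exon bases of Far2, 11.4% are shared with Ergic2 on the other strand. In Fa2h, Elovl3 and Far2 the second female BRAF tumour was near or at 0, and the 0 of Elovl3 there allows up to 0.139 CPM (3 counts). The sebaceous duct keratin Krt79 was also lowest in that tumour, at 45.9, 1.57 and 67.7 CPM in BRAF against 94.6, 114 and 164 CPM in BRAF-SOX2 tumours. Of the 10 sebocyte markers tested, 0 were called higher by edgeR (1 each by DESeq2 and limma-voom) and 1, Cidea, was called lower. An unadjusted p under 0.05 was held by 2 of them, beside 25.7% of all genes. The sum of these markers was 51.7 to 122 CPM in BRAF and 142 to 221 CPM in BRAF-SOX2 tumours, and the gap was that of Krt79. Without Krt79, left out after its values were seen, the other 9 summed to 76.2, 50.2 and 47.1 CPM in BRAF and to 47.2, 54.8 and 56.8 CPM in BRAF-SOX2 tumours, with overlap. The part of these cells in the result was not tested.

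Scd1 and Soat1 lay in the same direction with more counts behind them. Scd1, a stearoyl-CoA desaturase of sebaceous gland and fat, stood at 214, 88.2 and 171 CPM in BRAF and at 511, 270 and 327 CPM in BRAF-SOX2 tumours (log2 fold change 1.23 ± 0.37, adjusted p = 0.0996). Scd2, its epidermal relative, stood at 1004, 728 and 913 CPM against 625, 857 and 765 CPM and overlapped (log2 fold change -0.23 ± 0.19, adjusted p = 0.473). The ratio of Scd2 to Scd1 was 4.70, 8.25 and 5.35 in BRAF and 1.22, 3.18 and 2.34 in BRAF-SOX2 tumours, without overlap (exact permutation test, two-sided, p = 0.1, the smallest possible). Soat1, which esterifies cholesterol, stood at 20.9, 7.99 and 24.6 CPM against 81, 32.3 and 36.4 CPM (log2 fold change 1.49 ± 0.50, adjusted p = 0.123). For both, the first male BRAF-SOX2 tumour was highest, and it also held the most RNA of the fat-cell genes Adipoq (4.2 CPM, at most 0.108 CPM elsewhere) and Cfd (22.2 CPM, at most 0.855 CPM elsewhere). Fabp4, another adipocyte marker, differed. It was highest in the first female BRAF tumour, at 43.7 CPM against 36.4 CPM in the first male BRAF-SOX2 tumour. Its groups overlapped, with a log2 fold change of -0.25, and the part of fat cells was not tested. Without the first male BRAF-SOX2 tumour the log2 fold changes of Scd1 and Soat1 were 0.92 and 0.94 (adjusted p = 0.154 and 0.222).

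**Figure D5:**
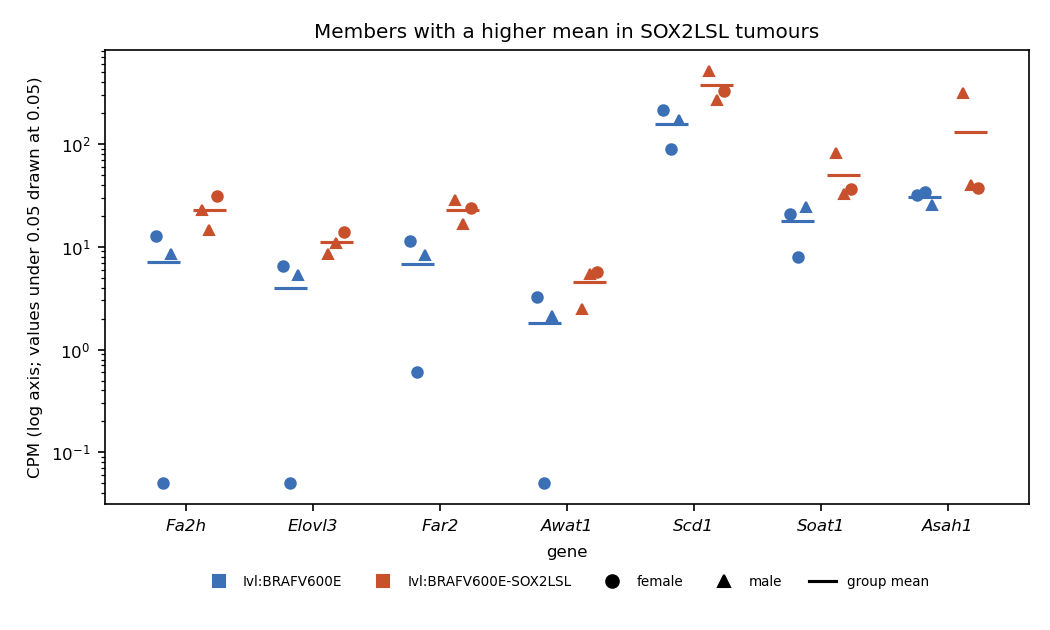
CPM on a log axis of 7 members with a higher mean in BRAF-SOX2 tumours, 1 point per tumour (circles, female; triangles, male), with bars at the group means and values under 0.05 drawn at 0.05. The second female BRAF tumour is the lowest point of the first 6 genes, and 1 BRAF-SOX2 tumour at 312 CPM stands far above the rest for Asah1.

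The other elongation and neutral lipid genes were mixed. Dgat2, which makes triglyceride, stood at 262, 250 and 265 CPM in BRAF and at 55.3, 126 and 189 CPM in BRAF-SOX2 tumours, without overlap (log2 fold change -1.07 ± 0.39, adjusted p = 0.145). Elovl7 had a log2 fold change of -0.84 (adjusted p = 0.175) without overlap, and Elovl6 one of 0.00 (adjusted p = 0.994), with a mean of 130 CPM in either group. The wax synthases were scarce, Awat1 at 0 to 5.71 CPM and Awat2 at 0.277 to 0.875 CPM over the 6 tumours, with overlap for both. By role, elongation and desaturation had 1 of 5 genes lower and 2 of 5 higher without overlap, with a median of 0.00. Neutral lipid and wax ester synthesis had 1 and 2 of 5, with a median of 1.32. Over all genes, 16% were lower and 18.2% higher without overlap. EdgeR called 0 genes of either role. In each role 2 of 5 had an unadjusted p under 0.05, beside 25.7% of all genes. In the first role DESeq2 called 1 higher and limma-voom 0. In the second DESeq2 called 1 in each direction and limma-voom 0. Over all genes, DESeq2 called 7.76% lower and 10.5% higher.

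The acid lipases, secreted lipases of the upper epidermis that lie close together on chromosome 19, had 0 of 3 called by edgeR. Of the 3, 1 had an unadjusted p under 0.05 and 1 was called lower by both DESeq2 and limma-voom. Over all genes, 25.7% had such a p, and DESeq2 and limma-voom called 7.76% and 3.97% lower. Lipm stood at 89.5, 59.7 and 67.8 CPM in BRAF and at 16.5, 28.9 and 42 CPM in BRAF-SOX2 tumours, without overlap (log2 fold change -1.31 ± 0.33, adjusted p = 0.0717), but 34.9% of its exon bases are shared with Ankrd22 on the opposite strand. Lipn stood at 26.8, 8.36 and 12.7 CPM against 4.03, 6.19 and 14 CPM (log2 fold change -0.99 ± 0.56, adjusted p = 0.31), and Lipk had a log2 fold change of -0.74 (adjusted p = 0.365). For these last the groups overlapped, and the first female BRAF tumour was well above the other BRAF tumours.

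Per kilobase of exon, Elovl4 had the highest level of the 40 genes in both groups, with a mean of 487 CPM per kb in BRAF and 215 CPM per kb in BRAF-SOX2 tumours. In BRAF tumours Alox12b (265 CPM per kb) and Scd2 (161 CPM per kb) came next. Cers3, Cyp4f39, Elovl1 and Sdr9c7 followed between 118 and 125 CPM per kb, closer to each other than the spread of Cyp4f39 between tumours. In BRAF-SOX2 tumours Scd2 was second at 137 CPM per kb, followed by Degs1 (83 CPM per kb), Scd1 (75.5 CPM per kb) and Alox12b (72.5 CPM per kb). Summed over the role, acylceramide genes stood at 3986 to 5228 CPM in BRAF and at 1227 to 2617 CPM in BRAF-SOX2 tumours, whereas elongation and desaturation genes overlapped, at 1114 to 1632 CPM against 1361 to 1398 CPM.

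Of 83 other genes of the pathway, 81 were tested, 5 were called lower and 0 higher, beside 1.51% and 2.39% of all genes, and 22 were lower and 12 higher without overlap, beside 16% and 18.2%. Their log2 fold changes centred on -0.16, and 31 had an unadjusted p under 0.05, beside 25.7% of all genes. DESeq2 called 14 of them lower and 7 higher, beside 7.76% and 10.5% of all genes, and limma-voom 11 and 4, beside 3.97% and 4.8%. The called genes were Acsbg1 and Acsl1, which activate fatty acids, Dhcr7, of the last step of cholesterol synthesis, Sgpl1, which breaks down sphingosine 1-phosphate, and Abcg1, a sterol exporter. Acsbg1 stood at 170, 182 and 153 CPM in BRAF and at 66.8, 87.6 and 88.9 CPM in BRAF-SOX2 tumours (log2 fold change -1.05 ± 0.15, edgeR adjusted p = 0.0253). Acsl1 stood at 249, 229 and 221 CPM against 68, 105 and 131 CPM (log2 fold change -1.20 ± 0.23, adjusted p = 0.0423). The groups were apart for both, as they were for Dhcr7, Sgpl1 and Abcg1, with log2 fold changes of -0.74, -0.73 and -0.86 (adjusted p = 0.0437, 0.0465 and 0.0465). The 3 genes with the smallest p in the other direction, none of them called, were Hacd1 (log2 fold change 1.34), Slc27a3 (1.63) and Alox5 (2.13), with adjusted p = 0.057, 0.0624 and 0.0648.

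Promoter windows of RefSeq (GRCm38.p6) were found for 32 of the 40 members, 42 windows in all, and the 250 bases before each start were searched on both strands for 6 motifs, none of which contains another. The SOX core motifs ACAAAG and ACAATG were in 21.4% and 11.9% of the members' windows, beside 16.5% and 10.7% of all 32851 windows. The AP-2-type motif GCCNNNGGC was in 23.8% beside 13.7%, the AP-1-type motif TGANTCA in 9.52% beside 6.75%, the GRHL-type motif AACNGGTT in 2.38% beside 1.79%, and TATAAA in 2.38% beside 12.4%. Stretches of chr10:127898389-127898448 (Sdr9c7), chr7:66743422-66743481 (Cers3), chr17:32452508-32452567 (Cyp4f39), chr2:139493667-139493834 (Sptlc3) and chr19:34100855-34100914 (Lipm), all on the plus strand, are shown because these genes were lower without overlap, had a log2 fold change of -1 or below and hold a SOX core, in capitals, on either strand. Pnpla1 meets the same rule, but its window lies within exons and is not printed. A SOX core was also found for members outside that rule. They were Awat2, Far2, Sgms1, Sgms2 and Sptlc1, with log2 fold changes of 0.32, 1.76, 0.29, 0.30 and -0.74. In Cers3 the match starts 55 bases before the start of transcription, in Lipm 61, in Sdr9c7 119 and in Cyp4f39 188 bases, and Sptlc3 holds 3 matches of ACAAAG and 1 of ACAATG. A match is a description of the letters, and binding was not measured.
Sdr9c7: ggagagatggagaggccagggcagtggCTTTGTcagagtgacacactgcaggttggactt
Cers3: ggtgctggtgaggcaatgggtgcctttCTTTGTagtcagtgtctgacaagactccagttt
Cyp4f39: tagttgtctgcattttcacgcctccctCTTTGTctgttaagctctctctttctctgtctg
Sptlc3: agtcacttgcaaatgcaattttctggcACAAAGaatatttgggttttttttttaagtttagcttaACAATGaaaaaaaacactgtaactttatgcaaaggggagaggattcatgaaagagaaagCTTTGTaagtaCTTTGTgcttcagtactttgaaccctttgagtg
Lipm: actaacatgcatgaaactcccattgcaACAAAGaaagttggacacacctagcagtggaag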

How the data were processed

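Bulk RNA of mouse skin tumours was sequenced from libraries depleted of ribosomal RNA. Per the labels and methods, the authors ran FastQC 0.11.8 and Trim Galore, aligned the reads to GRCm38 with HISAT2 2.1.0 and deposited raw read counts per gene from featureCounts (Subread 1.6.3), with no normalisation. Strand and multimapping settings are not given in the sources used here.

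Columns of the count table are named by mouse. The genotype and sex of 6 mice came from the listing that accompanies the study, and 1 column, whose group its name does not settle, was not used. The test had been planned for all columns of both groups and was run on 3 tumours against 3, so p-values rest on the spread between these mice. The test was the quasi-likelihood F-test of edgeR 4.0.16 in R 4.3.3, after TMM scaling, on the 24433 genes that reached 5 reads in 1 tumour or more, and Benjamini-Hochberg adjusted values under 0.05 over all these genes count as called. CPM are after TMM, and SE is the log2 fold change divided by the root of F. Where a tumour is at 0, the upper limit given is 3 counts. Depth limits scarce members such as Awat2 (6 to 27 reads a tumour), and the number of tumours limits all. Ratios of CPM within a tumour, 10 in all, were compared by an exact two-sided permutation test of the mean log2 ratio. The smallest p, 0.1, became 0.143 when adjusted over them. The genes of these ratios were chosen with earlier results of these data known, so the p-values add no support. Positions, exon lengths and exon overlaps are from GENCODE M21 and promoters from RefSeq (GRCm38.p6). In 33 of the 42 member windows, bases after the start were found in a GENCODE transcript of that gene on the same strand. The script was tested on simulated counts.

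The members, the 83 other pathway genes and the marker lists were chosen with earlier results of these data known. Values in every tumour are given for each called member, each member without overlap and with a log2 fold change of at least 1 in size, and the 2 members of each role with the highest level per kilobase. Of the pathway list Sts and, of the sebocyte list, Fads2b had no match, and Elovl2 and Cd79a were too low to test. Alternatives were DESeq2 1.42.0, limma 3.58.1 (voom with sample weights), other scalings and filters, sex as a covariate, removal of muscle genes, and each tumour left out in turn. Summaries used pandas 2.3.3 under Python 3.11.15, and matplotlib 3.10.9 drew the figures.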

Additional observations from a re-analysis of the deposited data

How the results depend on the processing

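No paired analysis was possible because the columns carry no replicate numbers. The alternatives moved counts more than values: over the 40 members, the named pathway genes and the median of the members, 596 of 735 values kept direction and side of the threshold, 74 came to pass, 53 no longer passed and 12 changed sign. Members called lower (3 in edgeR) numbered 19 with DESeq2, 15 with limma-voom, 12 without a filter on low counts, 6 with filterByExpr and 8 with libraries scaled to the epithelial markers, while the share of all genes called lower, 1.51%, became 7.76%, 3.97%, 1.99%, 3.18% and 1.02%. That scaling put the median of all genes at 0.25 and that of the members at -0.69. Members called higher (1) numbered 3 with DESeq2. Other pathway genes called lower (5) numbered 14, 11, 8, 8 and 3 with DESeq2, limma-voom, no filter, filterByExpr and the epithelial scaling, and those called higher (0) numbered 7, 4, 3, 1 and 1. The share of all genes called higher, 2.39% in edgeR, became 10.5%, 4.8%, 3.25%, 4.18% and 1.62% in the same order. With sex as a covariate the counts of members and of other pathway genes were all 0 in edgeR, beside 67 of 24433 genes lower and 161 higher. In that fit 22 members had an unadjusted p under 0.05, beside 4543 of all genes. DESeq2 size factors and upper-quartile scaling left the members' counts at 3 and 1, as did removal of muscle genes.

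With each tumour left out in turn, members called lower ranged from 0 to 17 and higher from 0 to 1, and other pathway genes called lower from 0 to 13 and higher from 0 to 2. The calls over all genes ranged widely too. Without the first female BRAF tumour 10 of 23953 genes were called lower and 12 higher. Without the first male BRAF-SOX2 tumour these were 730 of 23535 and 845. The highest counts were those without the first male BRAF-SOX2 tumour, and the cause was not tested. The signs that changed were of values near 0 or of scarce genes. Sptlc2 was 0.051 with the epithelial scaling. Elovl6 was -0.00345 with DESeq2, -0.18 with limma-voom, -0.00347 with DESeq2 size factors, -0.10 with upper-quartile scaling and -0.00647 with filterByExpr. With a tumour left out, Elovl6 ranged from -0.18 to 0.26, Degs1 from -0.38 to 0.015 and Awat2 from -0.21 to 0.61. With 3 tumours a group, differences such as those of Fa2h and Elovl3 could not be told from the spread between tumours.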
